A study of Mus musculus with 31 samples.

Results

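The genes described here are 43 mouse genes of DNA replication and S phase, followed through 31 bulk RNA-seq libraries. They are a named list of symbols, and each was looked up in every count table; all 43 were found among the 48211 symbols common to both table layouts, by symbol or through their Ensembl identifier. By role they are 4 origin licensing genes (Orc1, Orc6, Cdc6, Cdt1), the 6 MCM helicase subunits Mcm2 to Mcm7, 5 genes of origin firing (Mcm10, Cdc45, Gins1, Gins2, Gins3) and 6 polymerase and primase genes (Pola1, Pola2, Prim1, Prim2, Pold1, Pole). The sliding clamp and its loader give 5 more (Pcna, Rfc2 to Rfc5), Okazaki fragment processing 2 (Fen1, Lig1), the fork and its protection 4 (Rpa2, Clspn, Tipin, Brca1) and nucleotide supply 5 (Rrm1, Rrm2, Tyms, Tk1, Dut). The last 6 are Ung for uracil removal, Uhrf1, Chaf1a and Chaf1b for chromatin behind the fork, and E2f1 and Dtl for S phase control.

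The study models peripheral T cell lymphoma driven by a fusion of Vav1, a signalling adaptor of lymphocytes, with Myo1f, an unconventional myosin. In all sets Cre recombinase is under the CD4 promoter, which is active in the T cell lineage; in the CreERT2 form, Cre fused to an altered oestrogen receptor acts after tamoxifen. The mice are C57B/6, the labels give no ages and no tamoxifen dose, and controls are labelled with the Cre driver and WT, without Vav1Myo1f. In the pre-lymphoma set, CD4+ T cells came in 3 genotype labels. The 3 fusion/fusion libraries (TA023, TA024, TA025) and the 3 control/fusion libraries (TA020, TA021, TA022) have the status pre-lymphoma, and 2 control libraries (TA018, TA019) have the genotype CD4-Cre-ERT2(WT) and the status normal. Fusion/fusion stands for a label that names Vav1Myo1ffl/wt;CD4CreERT2 on both sides of a slash, and control/fusion for one that names the control before it; what the slash means is not stated, and neither is whether these libraries come from separate animals, so p-values may measure technical spread only. In the CD4-Cre set, CD4-CreVav1Myo1f fl/wt tumors gave 4 CD4+ libraries (mice VM388, VM58, VM645, VM98) and 3 whole spleen libraries (VM388, VM58, VM98), against 3 CD4+ and 3 spleen libraries of CD4-Cre(WT) mice VM211, VM216 and VM645. In the CD4-CreERT2 set, CD4-CreERT2Vav1Myo1f fl/wt tumors gave 2 CD4+ libraries (VM231, VM236) and 3 spleen libraries (VM231, VM236, VM294), against 2 CD4+ libraries (A1, A3) and 3 spleen libraries (A1, A2, A3) of CD4-CreERT2 (WT) mice.

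A cell duplicates its genome once per division. Origins are loaded with MCM helicase rings in G1, and in S phase the rings are switched on, primase and polymerases copy both strands behind them, the PCNA clamp holds the polymerases on DNA, and histones and DNA methylation marks are restored on the new strands. Many of these genes are transcribed from E2F-controlled promoters that open as a cell passes from G1 into S phase, so resting T cells hold low levels and activated T cells high ones.

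Counts summed over genes came to 12632196 to 37568512 per library (12632196 to 29257595 in the pre-lymphoma set), and the lowest count of any of the 43 genes was 16 in the pre-lymphoma set and 31 in the CD4-Cre set. In the CD4-CreERT2 set it was 1, for Ung in the VM294 spleen. The number VM645 stands on a tumor CD4+ library and on control libraries, so values of the CD4-Cre set that move without these libraries are given beside the results. The tumor spleen VM294 and the CD4+ and spleen tumor libraries of VM58 stood apart in how their changes followed base composition, as described with the tumor results. The CD4+ tumor library of VM98 stood apart in the number of genes detected. T cell markers were high in every CD4+ library: 10 of them summed to 5540 to 6450 CPM (gene counts per library total, scaled by TMM) in the pre-lymphoma set. All 43 genes passed the filter on low counts in every comparison. Reads carry no stated strand. Most of the exon length of Fen1 (84.2%) and Gins2 (67.3%) overlaps exons of other genes (Tmem258 and Gm10143, and Gse1). Values of Fen1 and Gins2 are therefore uncertain. Smaller parts overlap in other genes of the list, the largest in Chaf1a (18.7%, with Ubxn6) and Rfc2 (15.1%, with Lat2). The part of these overlaps in their values was not tested.

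Before lymphoma, most of the replication genes were higher in CD4+ cells with the fusion, and more so in fusion/fusion than in control/fusion cells. Against control cells, 36 of the 43 genes were higher and none was lower in fusion/fusion cells (median log2 fold change 0.95), and 26 were higher, with none lower, in control/fusion cells (median 0.60). Rrm2, a subunit of the enzyme that makes deoxynucleotides, was 4.35-fold higher in fusion/fusion and 2.17-fold higher in control/fusion cells. Fusion/fusion cells also had 27 of the genes above control/fusion cells, with none below (median 0.40). Calls are adjusted p under 0.05 in the quasi-likelihood F test of edgeR over all 16257 genes tested; of these genes, 23.8% were called higher and 22% lower in fusion/fusion cells, 11.6% and 8.7% in control/fusion cells, and 9.59% and 9.3% between the fusion groups. No gene among the 43 was called in control/fusion cells only, 26 were called in both fusion groups against control, 10 in fusion/fusion cells and not in control/fusion cells, and 19 in all 3 comparisons. Both fusion groups were set against the same 2 control libraries, so these counts are not independent of each other. The share of all genes called jointly is not given here, so the joint counts only describe the 43 genes. The count in control/fusion cells was 13 without control library TA019, a fit that called 852 genes in all, against 3299 with every library. The count between fusion groups was 12 without fusion/fusion library TA024 and 15 without control/fusion library TA022, fits that called 1582 and 2142 genes in all, against 3071 with every library.

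**Figure D1:**
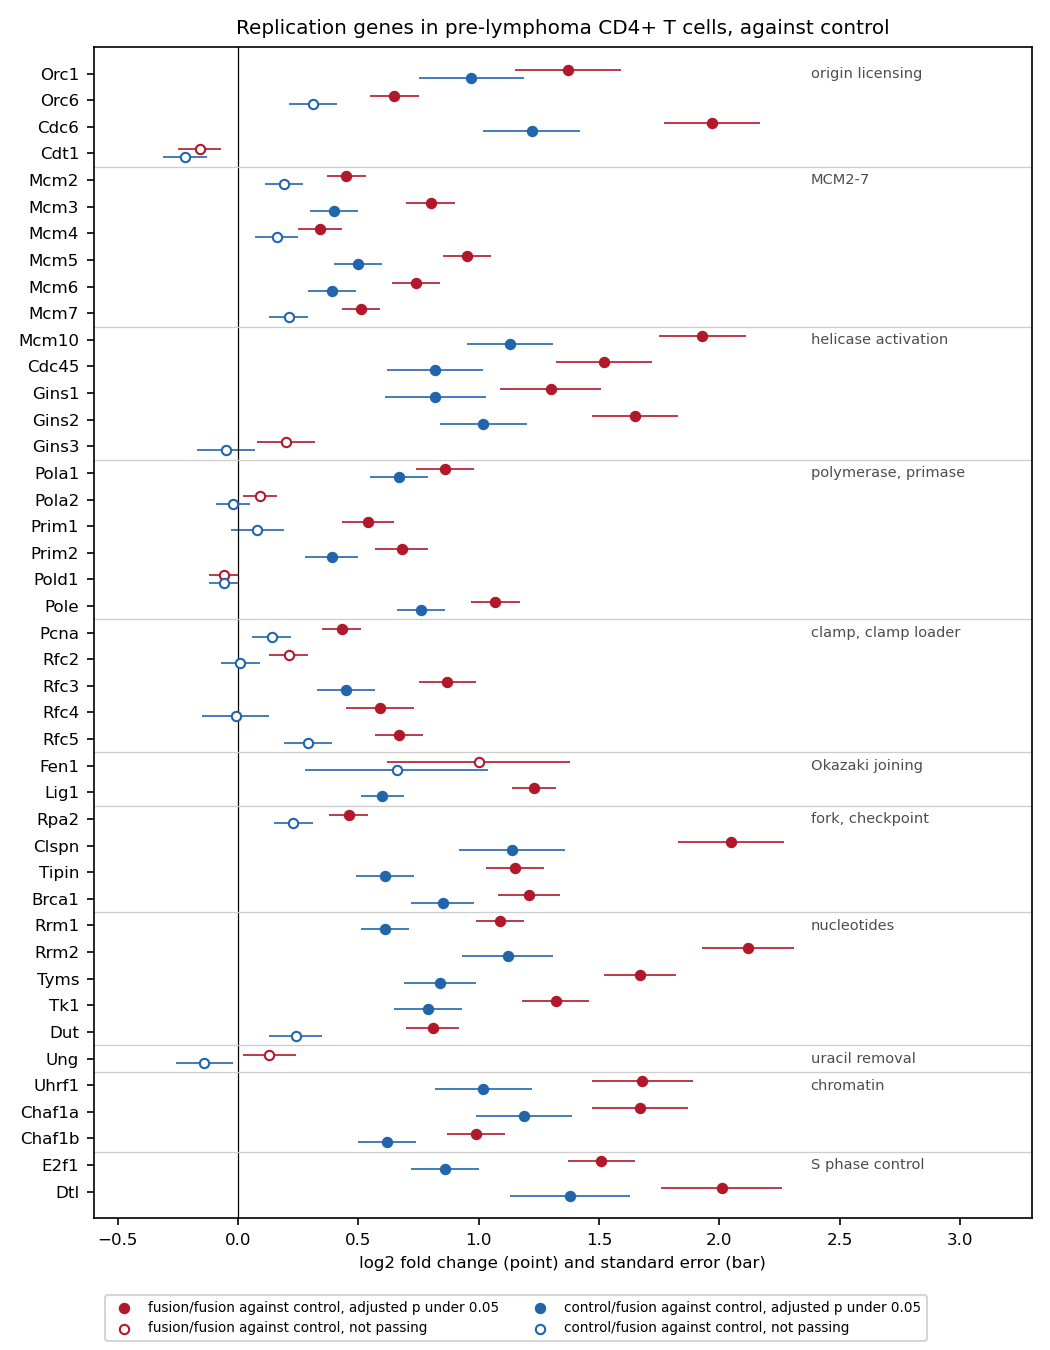
Log2 fold change with its standard error for each of the 43 genes, grouped by role, in fusion/fusion cells against control cells (red) and control/fusion cells against control cells (blue); filled points passed an adjusted p under 0.05. The red points run from -0.16 (Cdt1) to 2.12 (Rrm2) and the blue ones from -0.22 (Cdt1) to 1.38 (Dtl).

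The licensing genes changed unevenly: 3 of 4 were higher in fusion/fusion and 2 of 4 in control/fusion cells. Cdc6 (chr11:98907801-98923940, GRCm38), the ATPase that brings MCM rings to origins, had 19.1, 18 and 15.5 CPM in fusion/fusion, 13.1, 9.84 and 8.76 CPM in control/fusion and 5.15 and 3.84 CPM in control cells. The 3 groups did not overlap. Gaps of this kind were common: without overlap, 33.1% of all genes lay above and 32.8% below control in fusion/fusion cells. The shares were 26.4% and 26.3% for control/fusion cells against control, and 19.4% and 18.7% for fusion/fusion against control/fusion cells. The log2 fold change of Cdc6 was 1.97 ± 0.20 (standard error) in fusion/fusion cells (edgeR adjusted p = 5.3e-05) and 1.22 ± 0.20 in control/fusion cells (adjusted p = 0.00335). Between the fusion groups it was 0.75 ± 0.17 (adjusted p = 0.0137). Orc1, the largest subunit of the origin recognition complex, rose by 1.37 ± 0.22 in fusion/fusion and by 0.97 ± 0.22 in control/fusion cells, both past the threshold. Orc6 passed in fusion/fusion cells (0.65 ± 0.10) and not in control/fusion cells (0.31 ± 0.10), and passed between them (0.34 ± 0.09). Cdt1, the partner of Cdc6 that is degraded in S phase, was not called: its log2 difference was -0.16 ± 0.09 in fusion/fusion cells (edgeR adjusted p = 0.181) and -0.22 ± 0.09 in control/fusion cells (adjusted p = 0.108).

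All 6 MCM subunits were higher in fusion/fusion cells, by 0.34 (Mcm4) to 0.95 (Mcm5) on the log2 scale, and 3 of the 6 (Mcm3, Mcm5, Mcm6) also in control/fusion cells. Mcm5 (chr8:75109569-75128439) had 111, 124 and 110 CPM in fusion/fusion, 85.2, 89.3 and 78.1 CPM in control/fusion and 65.7 and 52.8 CPM in control cells. The groups did not overlap, and the change was 0.95 ± 0.10 in fusion/fusion (edgeR adjusted p = 7.0e-05) and 0.50 ± 0.10 in control/fusion cells (adjusted p = 0.00809). Between the fusion groups 5 of the 6 subunits passed, all but Mcm4, which at 0.18 ± 0.08 was among the smallest differences of the list.

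E2F factors bind short words close to gene starts, and such words were searched in 300-base windows of RefSeq (GRCm38.p6) that run from 250 bases before a gene's start to 50 after it. The words were TTTCCCGC, TTTGGCGC, TTTCGCGC and TTTGCCGC on both strands, and overlapping matches counted as 1. A window was found for 36 of the 43 genes, and 15 of the 36 (41.7%) held a word, against 704 of all 27025 genes with a window (2.6%) and 1 of 17 mitosis genes (5.88%). The 4 genes with the most matches, at 2 each, were Mcm3, Mcm6, Mcm7 and Rfc3. They are shown for that number of matches, 5' to 3' on the gene's strand, and all 4 rose in fusion/fusion cells. Capitals mark the words, and in Mcm6 a pair of overlapping words forms 1 match.
Mcm3: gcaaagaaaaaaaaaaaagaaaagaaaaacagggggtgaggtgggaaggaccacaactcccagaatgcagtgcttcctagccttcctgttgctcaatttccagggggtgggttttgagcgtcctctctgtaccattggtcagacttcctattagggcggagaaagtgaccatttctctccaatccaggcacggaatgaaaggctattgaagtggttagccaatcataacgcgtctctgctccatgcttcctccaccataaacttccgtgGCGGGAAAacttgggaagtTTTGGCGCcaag
Mcm6: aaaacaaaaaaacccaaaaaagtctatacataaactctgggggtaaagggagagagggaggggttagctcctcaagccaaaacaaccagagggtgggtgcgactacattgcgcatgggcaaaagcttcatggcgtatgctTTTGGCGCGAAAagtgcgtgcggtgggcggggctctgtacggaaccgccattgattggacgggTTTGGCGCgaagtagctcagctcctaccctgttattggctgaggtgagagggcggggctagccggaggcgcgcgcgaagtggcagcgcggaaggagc
Mcm7: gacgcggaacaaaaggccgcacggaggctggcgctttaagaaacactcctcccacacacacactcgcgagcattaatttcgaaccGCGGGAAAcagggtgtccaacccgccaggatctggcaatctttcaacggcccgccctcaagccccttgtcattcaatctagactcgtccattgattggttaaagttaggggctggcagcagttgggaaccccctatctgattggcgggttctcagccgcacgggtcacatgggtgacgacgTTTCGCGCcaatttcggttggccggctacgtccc
Rfc3: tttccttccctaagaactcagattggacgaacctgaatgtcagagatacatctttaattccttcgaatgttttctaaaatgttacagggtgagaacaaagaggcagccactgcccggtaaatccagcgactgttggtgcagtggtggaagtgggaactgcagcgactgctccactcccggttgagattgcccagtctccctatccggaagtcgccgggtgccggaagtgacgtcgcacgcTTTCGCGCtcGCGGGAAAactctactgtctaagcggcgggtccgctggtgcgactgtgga
The windows lie on the minus strand at chr1:20820263-20820562 (Mcm3), chr1:128359656-128359955 (Mcm6), chr5:138171834-138172133 (Mcm7) and chr5:151651159-151651458 (Rfc3). Counted from the gene start, the words begin at bases 19 and 38 in Mcm3, and at bases -10 and 0 in Rfc3, so both pairs lie at the start itself. Of the 15 genes with a word, 12 were higher in fusion/fusion cells (median log2 fold change 0.87), and of the 21 without one, 18 were higher (median 0.99). The CHR element TTTGAA, which late cell cycle promoters carry, was found for 4 of 36 replication genes with a window (11.1%), 12 of 17 mitosis genes (70.6%) and 20.2% of all genes with a window, and the CCAAT box for 61.1%, 88.2% and 41.1% of the genes in the same 3 sets.

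Origin firing genes were higher in both fusion groups except Gins3. Cdc45 (chr16:18780447-18811987), which joins MCM and GINS into the moving helicase, had 13.8, 20.4 and 15 CPM in fusion/fusion, 9.82, 11.4 and 9.04 CPM in control/fusion and 6.39 and 4.98 CPM in control cells, again without overlap. It rose by 1.52 ± 0.20 in fusion/fusion (edgeR adjusted p = 2.2e-04) and by 0.82 ± 0.20 in control/fusion cells (adjusted p = 0.0178). Mcm10, which helps to start the helicase, rose by 1.93 ± 0.18 and 1.13 ± 0.18 in the same order. The GINS subunits differed: Gins1 (1.30 ± 0.21 in fusion/fusion cells) and Gins2 (1.65 ± 0.18) passed, and Gins3 did not (0.20 ± 0.12, adjusted p = 0.195).

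Among the polymerases, the catalytic subunits of alpha and epsilon rose and that of delta did not pass. Pola1 (chrX:93304767-93632155), which extends the primer, had 28.8, 25.1 and 23.9 CPM in fusion/fusion, 22, 24.6 and 22.1 CPM in control/fusion and 15.7 and 13 CPM in control cells. The fusion groups overlapped each other and both lay above control. The change was 0.86 ± 0.12 in fusion/fusion (edgeR adjusted p = 3.0e-04) and 0.67 ± 0.12 in control/fusion cells (adjusted p = 0.00448), with 0.19 ± 0.10 between them (adjusted p = 0.243). Pole, the leading strand polymerase, rose by 1.07 ± 0.10 in fusion/fusion and by 0.76 ± 0.10 in control/fusion cells. Pold1, the catalytic subunit of the lagging strand polymerase, had a log2 difference of -0.06 ± 0.06 in each fusion group, and Pola2, the accessory subunit of alpha, 0.09 ± 0.07 in fusion/fusion cells. The primase subunits Prim1 (0.54 ± 0.11) and Prim2 (0.68 ± 0.11) rose in fusion/fusion cells, and in control/fusion cells Prim2 passed (0.39 ± 0.11) and Prim1 did not (0.08 ± 0.11).

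Of the clamp and its loader, 4 of 5 genes passed in fusion/fusion cells and 1 of 5 in control/fusion cells (Rfc3, 0.45 ± 0.12). Pcna (chr2:132249162-132253314) had 185, 219 and 193 CPM in fusion/fusion, 166, 167 and 155 CPM in control/fusion and 150 and 144 CPM in control cells. The groups kept apart, but the steps were small: 0.43 ± 0.08 in fusion/fusion (edgeR adjusted p = 0.00171) and 0.14 ± 0.08 in control/fusion cells (adjusted p = 0.241). Rfc3, Rfc4 and Rfc5, subunits of the loader that opens the clamp, rose by 0.87 ± 0.12, 0.59 ± 0.14 and 0.67 ± 0.10 in fusion/fusion cells, and Rfc2 did not pass (0.21 ± 0.08, adjusted p = 0.0561). Of the Okazaki fragment pair, Lig1, the ligase that seals nicks, had the lowest adjusted p of the list in fusion/fusion cells (1.23 ± 0.09, edgeR adjusted p = 8.1e-06) and was higher in control/fusion cells too (0.60 ± 0.09). Fen1 (chr19:10199132-10204169), the flap nuclease, had 2.04, 1.95 and 2.67 CPM in fusion/fusion, 2.02, 1.95 and 1.35 CPM in control/fusion and 1.58 and 0.627 CPM in control cells. Control and control/fusion cells overlapped, and the change of 1 ± 0.38 in fusion/fusion cells fell short of the threshold (edgeR adjusted p = 0.0508).

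In fusion/fusion cells the largest changes of the list were in the nucleotide gene Rrm2 and the fork gene Clspn; in control/fusion cells they were in Dtl (1.38), Cdc6 (1.22) and Chaf1a (1.19). Clspn (chr4:126556935-126593903), the mediator that couples stalled forks to Chk1, had 29.8, 32.1 and 27.2 CPM in fusion/fusion, 16.3, 16.7 and 14.7 CPM in control/fusion and 9.51 and 4.86 CPM in control cells. It stood apart in all 3 groups, with a change of 2.05 ± 0.22 in fusion/fusion (edgeR adjusted p = 7.0e-05) and 1.14 ± 0.22 in control/fusion cells (adjusted p = 0.0065). Tipin, of the fork protection complex, rose by 1.15 ± 0.12 in fusion/fusion cells and by 0.61 ± 0.12 in control/fusion cells, and Brca1, a repair factor that guards stalled forks, rose by 1.21 ± 0.13 and by 0.85 ± 0.13 in the same groups. Rpa2, a subunit of the single-strand binding protein, passed in fusion/fusion cells (0.46 ± 0.08) and not in control/fusion cells (0.23 ± 0.08).

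All 5 nucleotide genes were higher in fusion/fusion cells, and all 5 were also higher there than in control/fusion cells. Rrm2 (chr12:24708241-24714146) had 92.3, 104 and 88.4 CPM in fusion/fusion, 47.9, 53.5 and 40.7 CPM in control/fusion and 27.2 and 16.3 CPM in control cells. The groups did not overlap, and every step passed: 2.12 ± 0.19 in fusion/fusion cells (edgeR adjusted p = 2.3e-05), 1.12 ± 0.19 in control/fusion cells (adjusted p = 0.00342) and 1.01 ± 0.16 between the fusion groups (adjusted p = 0.0028). Its partner Rrm1 rose by 1.09 ± 0.10 in fusion/fusion cells, thymidylate synthase (Tyms) by 1.67 ± 0.15, the salvage kinase Tk1 by 1.32 ± 0.14 and the dUTPase Dut by 0.81 ± 0.11. In control/fusion cells 4 of the 5 passed, and Dut did not (0.24 ± 0.11).

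Ung (chr5:114130386-114139323), which cuts uracil out of DNA, had 14.5, 17.7 and 16.7 CPM in fusion/fusion, 13.1, 13.4 and 13.8 CPM in control/fusion and 15.4 and 14.2 CPM in control cells. Fusion/fusion and control libraries overlapped, and neither fusion group was called (0.13 ± 0.11 in fusion/fusion cells, edgeR adjusted p = 0.362). It is, with Cdt1, Gins3, Pola2, Pold1, Rfc2 and Fen1, one of the 7 genes called in neither fusion group.

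The chromatin and control genes were all higher in both fusion groups. Uhrf1 (chr17:56303321-56323486), which brings the maintenance DNA methyltransferase to new DNA, had 76.5, 77.3 and 71.6 CPM in fusion/fusion, 51.2, 51 and 41.6 CPM in control/fusion and 30.6 and 16.5 CPM in control cells. The groups did not overlap, with changes of 1.68 ± 0.21 in fusion/fusion (edgeR adjusted p = 1.4e-04) and 1.02 ± 0.20 in control/fusion cells (adjusted p = 0.00722). The histone chaperone subunits Chaf1a and Chaf1b rose by 1.67 ± 0.20 and 0.99 ± 0.12 in fusion/fusion cells. E2f1 (chr2:154559407-154569892), an activator E2F, had 17.4, 20.6 and 19.3 CPM in fusion/fusion, 13, 12.5 and 11.2 CPM in control/fusion and 7.47 and 5.92 CPM in control cells. These groups did not overlap either, and the change was 1.51 ± 0.14 in fusion/fusion (edgeR adjusted p = 3.3e-05) and 0.86 ± 0.14 in control/fusion cells (adjusted p = 0.00335). Dtl, the ubiquitin ligase adaptor that removes Cdt1 in S phase, rose by 2.01 ± 0.25 in fusion/fusion and by 1.38 ± 0.25 in control/fusion cells.

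Other genes of replication outside the 43 changed less uniformly. All lists were chosen with earlier results of these data known, so this contrast only describes them. Of 41 such genes 17 were higher and 6 lower in fusion/fusion cells (median 0.21). The counts were 11 higher and 3 lower for control/fusion cells. The firing factor Ticrr (1.86), the histone chaperone Asf1b (1.66), the exonuclease Exo1 (1.59) and the licensing inhibitor Gmnn (1.29) had the largest rises in fusion/fusion cells, and Donson (-0.62), Mcmbp (-0.44) and Mcm9 (-0.38) were lower. Among 18 genes of G1/S control 8 were higher and 1 lower in fusion/fusion cells, with Ccna2 (2.27), E2f8 (2.24) and E2f7 (2.13) on top and E2f5 lower (-0.56). Among 16 replication checkpoint and fork repair genes 6 were higher, such as Wee1 (1.55), and 3 lower, such as Rad9a (-0.71). Of 10 other nucleotide genes 4 were higher and 2 lower, among the lower ones Rrm2b (-0.33). Of all genes tested, 23.8% were higher and 22% lower in fusion/fusion cells, and 11.6% and 8.7% in control/fusion cells. In each of these lists the part lower in fusion/fusion cells was below the share of all genes.

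Mitosis genes had larger median changes than the replication genes. All 20 were higher in fusion/fusion cells (median 2.07) and in control/fusion cells (median 1.15), with Ube2c (2.53) and Ccnb2 (2.40) on top in fusion/fusion cells. Mki67, a marker of cycling cells, had 300, 292 and 289 CPM in fusion/fusion, 183, 177 and 155 CPM in control/fusion and 94.2 and 66 CPM in control cells. Its groups did not overlap, and it rose by 1.87 ± 0.13 in fusion/fusion (edgeR adjusted p = 7.3e-06) and by 1.10 ± 0.13 in control/fusion cells (adjusted p = 7.4e-04). The mean log2 CPM of the 43 replication genes minus that of the 20 mitosis genes was -0.40, -0.42 and -0.42 in fusion/fusion libraries, 0.01, 0.09 and 0.18 in control/fusion libraries and 0.54 and 0.87 in control libraries. This difference was lowest in fusion/fusion and highest in control libraries, and the groups did not overlap; its sign has no meaning of its own, because levels of different genes are set against each other without their lengths. In bulk samples, a larger share of cycling cells and more RNA of these genes per cell cannot be told apart.

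Signs of other cells and of library makeup moved with the same groups. Of 11 erythroid markers 10 were higher in fusion/fusion and 8 in control/fusion cells, and their summed level was 358 to 413 CPM in fusion/fusion, 139 to 637 CPM in control/fusion and 61.1 to 138 CPM in control libraries. Of 6 plasma cell markers 5 were higher in fusion/fusion cells and 1 in control/fusion cells, and they summed to 1100 to 1250, 497 to 611 and 353 to 576 CPM in the same 3 groups. Dendritic cell markers were higher in 5 of 8 and 7 of 8 cases (257 to 288 CPM in fusion/fusion, 246 to 311 CPM in control/fusion and 124 to 153 CPM in control libraries), and none of the markers in these 3 lists was at 0. B cell markers were lower in 3 of 10 cases in each fusion group. Of all genes tested, 22% were lower in fusion/fusion and 8.7% in control/fusion cells, and 23.8% and 11.6% were higher. Of 12 macrophage markers 1 was higher and 1 lower in fusion/fusion cells and 2 were higher in control/fusion cells, and of 8 neutrophil markers tested 1 was higher in fusion/fusion cells. Between the fusion groups, 5 of 8 neutrophil markers (Lcn2, Ltf, Ngp, S100a8, S100a9) and 5 of 6 plasma cell markers were higher in fusion/fusion cells, and 3 of 12 macrophage markers (Cd163, Mertk, Slc40a1) were lower. Of the dendritic cell markers 2 of 8 were higher and 3 lower in that comparison, where 9.59% of all genes were higher and 9.3% lower. The share of uniquely placed reads that matched no gene was 7.28% to 8.46% in fusion/fusion, 8.74% to 9.82% in control/fusion and 10.9% to 12.8% in control libraries. The part of these differences in the replication genes was not tested.

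**Figure D2:**
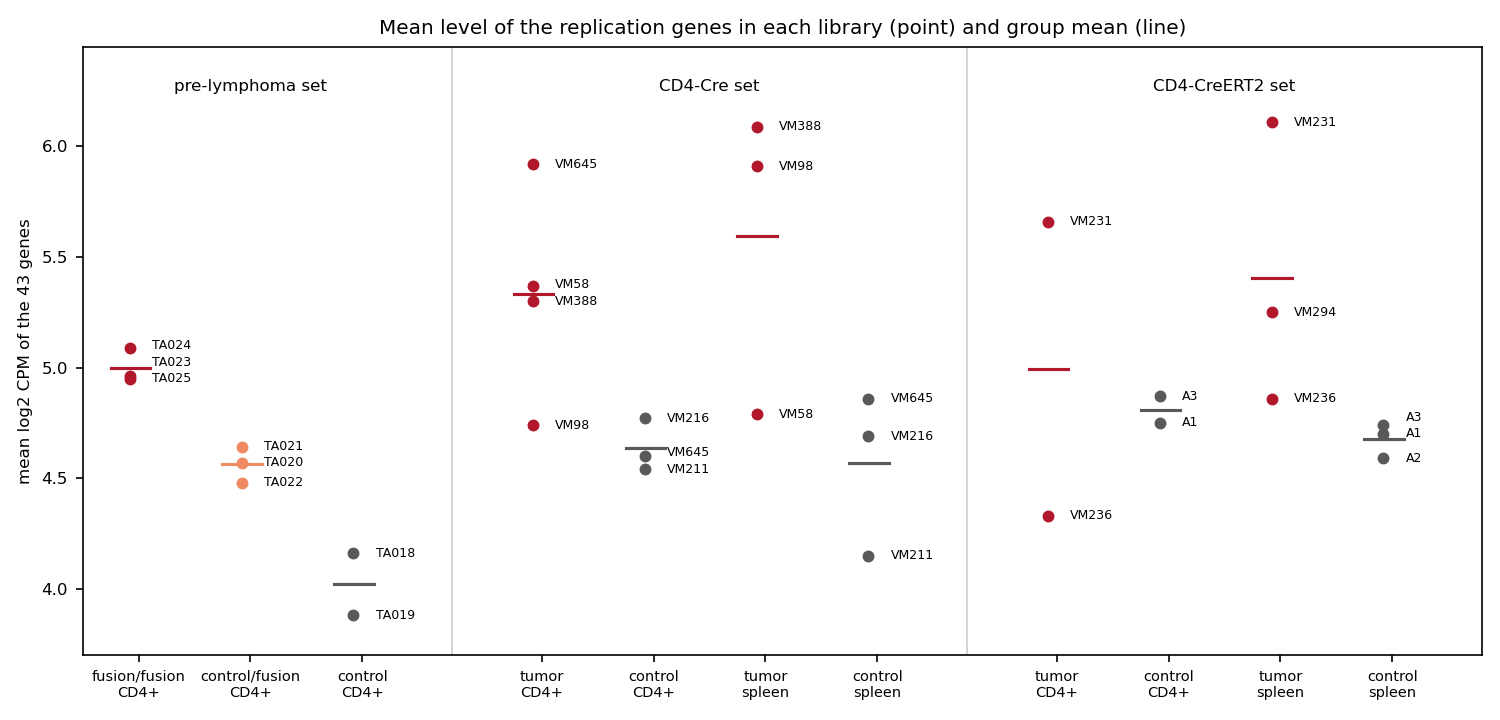
Mean log2 CPM of the 43 replication genes in each of the 31 libraries, by group, with 1 point per library and a line at the group mean. The 3 fusion/fusion libraries (4.95 to 5.09) lie above the 3 control/fusion libraries (4.48 to 4.64) and these above the 2 control libraries (3.88 and 4.16), while tumor libraries spread more widely than their controls.

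In tumors most of the same genes had positive fold changes, but values differed from mouse to mouse and no gene of the 43 passed edgeR's test in any of the 4 comparisons of tumor with control. In CD4-Cre CD4+ cells, 42 of 43 genes had a positive fold change (54.2% of all 17841 genes tested did), the median log2 fold change was 0.71, and 0 were called, where 0.0168% of all genes were called higher and 0.14% lower. At an unadjusted p under 0.05, 21 of the 43 were higher and none lower, against 7.8% of all genes higher and 7.33% lower. DESeq2 called 6 higher (Chaf1b, Clspn, Gins2, Lig1, Prim1, Tyms), in a fit that called 1271 genes in all, higher or lower. Without both VM645 libraries the median was 0.40 and still none was called; without the VM98 tumor library 3 were called, in a fit that called 579 genes in all, against 28 with every library. The groups did not overlap for 17 of the 43 genes, all higher in tumors, against 8.36% of all genes higher and 9.06% lower.

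Clspn had the largest change there, with 17.9, 20.1, 16.4 and 8.95 CPM in the tumors VM388, VM58, VM645 and VM98, against 2.29, 4.33 and 4.76 CPM in the control mice VM211, VM216 and VM645. Every tumor library lay above every control library (log2 fold change 2.03 ± 0.40, edgeR adjusted p = 0.0879). Next were Gins2 (1.48 ± 0.39), Lig1 (1.31 ± 0.26), Tyms (1.27 ± 0.42) and Brca1 (1.25 ± 0.43). At the other end Mcm4 had 137, 123, 182 and 86.1 CPM in the same tumors, against 130, 129 and 133 CPM in the controls, with tumors on both sides of the controls (-0.02 ± 0.24, edgeR adjusted p = 0.976). Gins3, Rpa2, Rfc2 and Fen1 also had small changes of 0.12 to 0.34. Macrophage and dendritic cell markers were lower in these tumor libraries at an unadjusted p under 0.05 in 6 of 12 and 5 of 8 cases. The dendritic cell marker Xcr1 was higher at the same threshold (2.06 ± 0.65). Macrophage markers summed to 163 to 1920 CPM in tumor and 2210 to 3580 CPM in control libraries, and B cell markers to 68.8 to 903 and 854 to 1380 CPM. Reads that matched no gene were 15.7% to 23.7% of the uniquely placed reads in tumor and 13.4% to 15.1% in control libraries. Their part in the result was not tested.

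**Figure D3:**
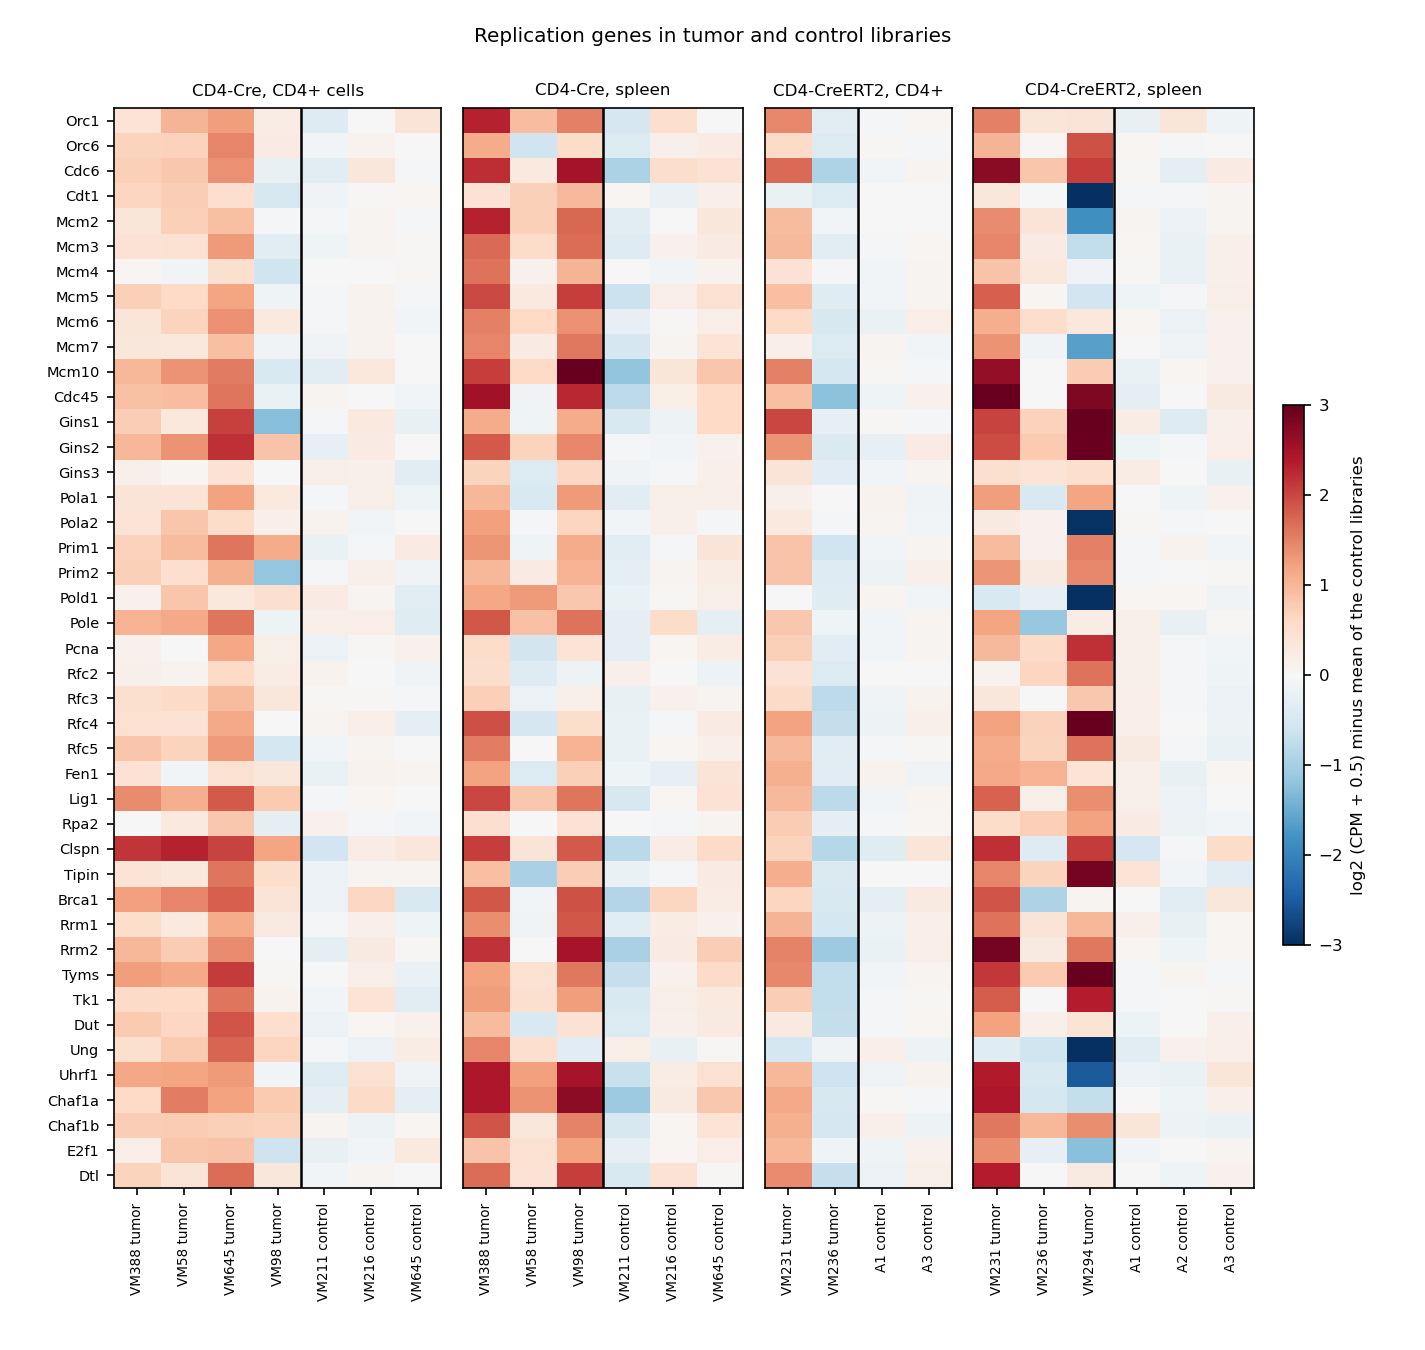
Log2(CPM + 0.5) of each of the 43 genes (rows, by role) in each tumor and control library (columns, tumors left of the black line), minus the mean of the control libraries of the same set and tissue; the colour scale stops at 3 on either side. Columns VM388, VM58 and VM645 of CD4+ cells and VM388 and VM98 of spleen are higher almost throughout, the VM236 CD4+ column is mostly lower, and the VM294 spleen column mixes the highest and lowest values.

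In CD4-Cre spleens all 43 genes had a positive fold change (52.8% of all 17050 genes did) with a median of 1.06, and none was called by edgeR (0% of all genes were). At an unadjusted p under 0.05, 27 were higher and none lower, against 8.13% of all genes higher and 5.79% lower. DESeq2 called 12 higher, in a fit that called 740 genes in all, higher or lower. Without the VM98 tumor spleen edgeR called 608 genes in all, and without the VM645 control spleen the median was 1.18. Without overlap, 11.1% of all genes lay above the control spleens and 11.3% below. Chaf1a had the largest change (2.12 ± 0.57, edgeR adjusted p = 0.248), and its groups did not overlap. It had 39.4, 18.3 and 47.3 CPM in the tumor spleens VM388, VM58 and VM98, against 3, 8.51 and 12.5 CPM in the control spleens VM211, VM216 and VM645. Mcm10 (2.12 ± 0.77), Uhrf1 (2.08 ± 0.42), Cdc45 (1.83 ± 0.66) and Cdc6 (1.83 ± 0.64) followed. Rfc2 had 229, 121 and 143 CPM in tumor and 176, 159 and 143 CPM in control spleens, which overlapped (0.04 ± 0.27), and the value for Pcna was 0.19 ± 0.30. The MCM subunits all had changes of 1.04 to 1.70 there, and the clamp and loader genes 0.04 to 0.99. Neutrophil markers summed to 169 to 79000 CPM in tumor and 7110 to 51100 CPM in control spleens; their part in the result was not tested.

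The tumor libraries differed. Against the controls of its own tissue, the CD4+ tumor library of VM645 had all 43 genes above every control library, VM58 had 39 and VM388 38, and VM98 had 20 above and 12 below. For comparison, 38.8%, 37.3%, 37.8% and 36.1% of all genes lay above every control in these 4 libraries and 38.2%, 35.3%, 33% and 36.2% below. In spleen, VM388 had all 43 above every control (35.5% of all genes above, 37% below), and VM98 41 above and 1 below (36.8% above, 35% below). VM58 had 16 above and 9 below, where 34.5% of all genes lay above and 41.3% below. VM98 was thus the lowest of the CD4+ tumor libraries and among the high spleen libraries, with mean log2 CPM of 4.74 in CD4+ cells and 5.91 in spleen. Control means were 4.54 to 4.77 in CD4+ cells and 4.15 to 4.86 in spleen. The CD4+ library of VM98 also stood apart in makeup: 34546 genes were detected in it, against 21702 to 24573 in the other libraries of the set, and 23.7% of its uniquely placed reads matched no gene, against 9.22% to 17.8% in the others. In the VM58 spleen, Spearman's rho between a gene's change and its GC content was 0.34 over all genes and 0.56 among the 43. In the CD4+ tumor library of VM58 it was 0.33 over all genes and 0.27 among the 43. The part of these differences in the values of VM98 and VM58 was not tested.

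In CD4-CreERT2 CD4+ cells the 2 tumor libraries went opposite ways. VM231 had 40 of the 43 genes above both controls and 2 below, where 40.3% of all genes lay above and 43.5% below. VM236 had 0 above and 39 below, where 32% of all genes lay above and 39.4% below. Gins1 had 18.3 CPM in VM231 and 3.46 CPM in VM236, against 4.29 and 4.1 CPM in the controls A1 and A3, so VM236 was under both controls (1.37 ± 0.80, the largest value of the list). Ung had 1.86 and 2.69 CPM in the same tumors, against 3.32 and 2.56 CPM in the controls, and the groups overlapped (-0.36 ± 0.49, the lowest value). Rrm2 was at 313 and 52.2 CPM in VM231 and VM236, against 96.2 and 128 CPM. Over both libraries the median was 0.38, 38 genes had a positive fold change (50.8% of all genes did), none was called by edgeR (0% of all 17341 genes were) or by DESeq2, and none was higher or lower at an unadjusted p under 0.05 (3.96% of all genes were higher and 1.21% lower). Without VM236, 26 of the 43 were called higher and the median was 0.90, in a fit that called 3254 genes in all, with the single tumor library assumed to vary like the controls. Without VM231 the median was -0.41 and none was called, where 374 genes were called in all.

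Markers of other cells differed between these libraries and controls. Neutrophil markers summed to 79.6 to 5930 CPM in tumor and 41.9 to 62.1 CPM in control CD4+ libraries, macrophage markers to 1230 to 3850 CPM and at most 493 CPM, and B cell markers to 454 to 1460 and 2830 to 2990 CPM. Of 12 macrophage markers 9 were higher at an unadjusted p under 0.05, and so were 8 of 10 neutrophil and 9 of 9 erythroid markers tested. Their part in the result was not tested. T cell markers summed to 5840 to 6800 CPM in tumor and to 6680 CPM in control libraries.

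In CD4-CreERT2 spleens 39 of 43 genes had a positive fold change (49.4% of all 16163 genes did), the median was 1.02, and none was called by edgeR (0% of all genes were). At an unadjusted p under 0.05, 18 were higher and none lower, against 13% of all genes higher and 7.05% lower. DESeq2 called 9 higher, in a fit that called 1818 genes in all, higher or lower. Without the VM236 spleen edgeR called 8, in a fit that called 891 genes in all. The median was 0.64 without the VM231 spleen. Tyms had the largest change, with 91.4, 35.7 and 315 CPM in VM231, VM236 and VM294, against 19.8, 21.8 and 20.2 CPM in A1, A2 and A3; no tumor library fell into the control range (2.90 ± 0.79, edgeR adjusted p = 0.155). Gins1 (2.86 ± 0.83), Cdc45 (2.50 ± 0.76), Gins2 (2.31 ± 0.63) and Rfc4 (2.25 ± 0.72) followed. Ung had the lowest value, with 3.34, 2.79 and 0.0668 CPM in the tumor spleens and 3.41, 4.94 and 5.22 CPM in the controls, all tumor libraries below (-1.11 ± 0.98, edgeR adjusted p = 0.543). Of all genes, 15.2% lay without overlap above the control spleens and 19.3% below. Pold1 (-0.84 ± 0.72), Cdt1 (-0.35 ± 0.77) and Pola2 (-0.30 ± 0.72) were the other negative values.

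The VM294 spleen set several of these values. Of its 43 genes 30 lay above every control and 11 below, where 37.3% of all genes lay above and 53.9% below. Pcna (439 CPM), Rfc2 (453 CPM) and Tipin (271 CPM) were higher in it than in any other library of the set, and Cdt1 (4.14 CPM), Pola2 (6.55 CPM), Uhrf1 (6.95 CPM), Pold1 (14.8 CPM) and Mcm2 (22 CPM) were lower than in any other. Its changes followed base composition: over 12550 genes, Spearman's rho between a gene's change and the GC content of its longest transcript was -0.33, against -0.18 to 0.34 in the other 30 libraries (0.34 in the CD4-Cre tumor spleen of VM58), and the median change of genes was -2.38 in the highest of 5 GC classes, against -0.64 in the lowest class. Among the 43 genes rho was -0.41 in VM294 and -0.24 to 0.56 in the others, with 0.56 in the VM58 spleen; genes of a library share its depth and preparation, so these are descriptions. Neutrophil markers summed to 2530 to 108000 CPM in the tumor spleens and 363 to 831 CPM in the control spleens, and B cell markers to 1090 to 6340 and 9520 to 9840 CPM. Erythroid markers summed to 205 to 1340 CPM in tumor and 10.2 to 20.7 CPM in control spleens, and macrophage markers to 1400 to 2560 and 330 to 505 CPM. The part of base composition and of these cells in the result was not tested. The tumor spleen of VM236, at a mean log2 CPM of 4.86, was near its controls (4.59 to 4.74), with 25 genes above every control and 9 below (41% of all genes above, 39.7% below). That of VM231 was the highest of the set at 6.11, with 40 above and 2 below (38.4% above, 44% below).

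**Figure D4:**
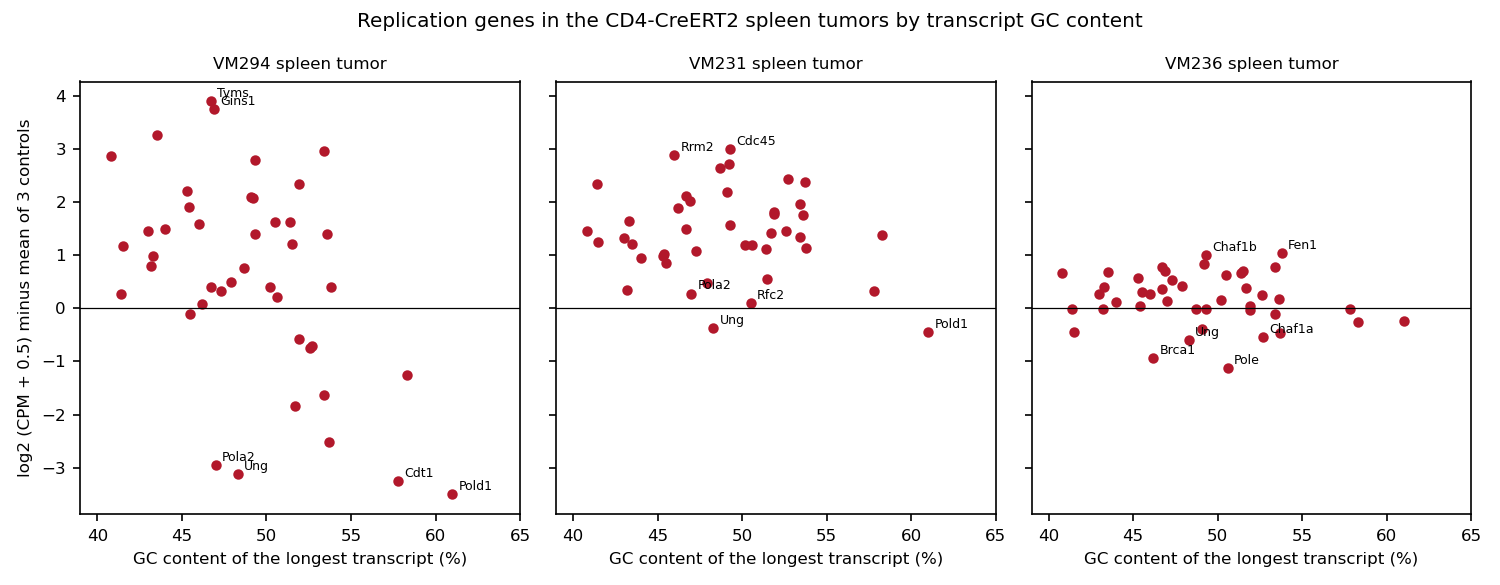
Change of each of the 43 genes from the control spleens (log2 scale) against the GC content of its longest transcript (percent) in the 3 CD4-CreERT2 tumor spleens, 1 panel per library, with the most extreme genes named. Spearman's rho was -0.41 in VM294, 0.01 in VM231 and -0.15 in VM236.

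Mitosis genes were mostly positive in tumors as well. All 20 had positive fold changes in 3 of the comparisons and 19 in CD4-CreERT2 CD4+ cells, with medians of 1.21 in CD4-Cre CD4+ cells, 1.74 in CD4-Cre spleens, 0.54 in CD4-CreERT2 CD4+ cells and 2.31 in CD4-CreERT2 spleens, and none was called by edgeR. At an unadjusted p under 0.05 the number higher was 17, 14, 0 and 18 in the same order. The mean of the replication genes minus that of the mitosis genes was lowest in the VM294 spleen (-1.60), the VM98 spleen (-1.41) and the VM231 spleen (-0.99), and 0.48 and 0.51 in the libraries of VM236. Of the other replication genes 32 of 41 were positive in CD4-Cre CD4+ cells, 33 in CD4-Cre spleens, 30 in CD4-CreERT2 CD4+ cells and 32 in CD4-CreERT2 spleens.

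**Figure D5:**
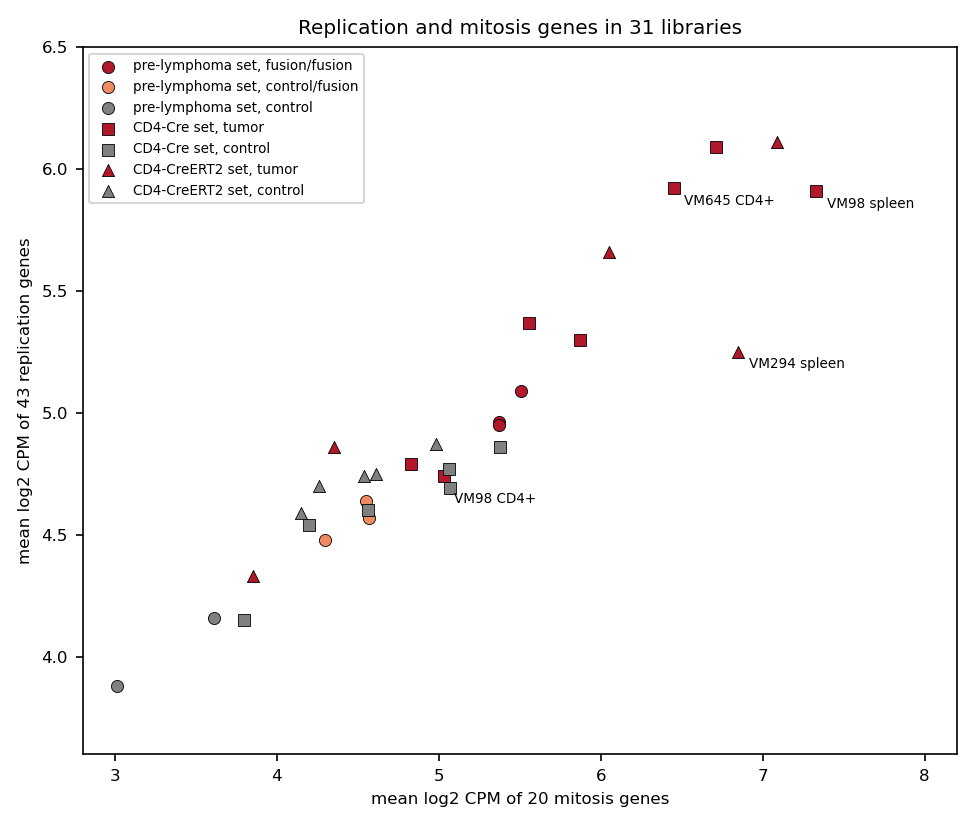
Mean log2 CPM of the 43 replication genes (vertical) against that of the 20 mitosis genes (horizontal) in the 31 libraries, with colour for status and shape for the set. In the pre-lymphoma set the vertical minus the horizontal value is -0.42 to -0.40 in fusion/fusion, 0.01 to 0.18 in control/fusion and 0.54 and 0.87 in control libraries; no gene lengths enter, so the 3 groups can be compared with each other but not the axes.

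The comparisons of fusion/fusion, CD4-Cre CD4+ tumor and CD4-CreERT2 CD4+ tumor cells with their own controls share no library. A positive fold change in all 3 was found for 37 of the 43 genes, and for 2840 of 14393 genes tested in all 3 (19.7%). The positive signs in CD4-CreERT2 CD4+ cells rested on the tumor library VM231. Without it the median of the 43 was -0.41, and the tumor library VM236 had 39 of them below both controls.

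Tissue levels were compared as CD4+ cells over whole spleen. In CD4-Cre control mice, Mcm6 (0.79 ± 0.14), Mcm2 (0.57 ± 0.17) and Mcm4 (0.50 ± 0.10) were higher in CD4+ cells, and Rfc2 (-0.79 ± 0.13) and Tipin (-0.50 ± 0.14) were lower (edgeR adjusted p = 0.00469 to 0.0401); 12.9% of all genes were higher and 12.8% lower. Mcm6 had 215, 237 and 206 CPM in CD4+ cells and 106, 128 and 145 CPM in spleens of VM211, VM216 and VM645, and Rfc2 had 99.7, 92.1 and 85.3 CPM in CD4+ cells and 176, 159 and 143 CPM in spleens. For both genes the tissues did not overlap, where 23.1% of all genes lay without overlap higher in CD4+ cells and 21.7% lower. With the mouse as a block, 4 of the 43 were higher (Mcm3 in addition) and 4 lower (E2f1 and Orc6 in addition). That fit called 5877 genes in all, against 4479 without the block. In CD4-CreERT2 control mice, 5 were higher in CD4+ cells and 1 lower, where 10.3% of all genes were higher and 11.3% lower. Tyms had 41.5 and 46.9 CPM in CD4+ cells and 19.8, 21.8 and 20.2 CPM in spleens (1.13 ± 0.14, edgeR adjusted p = 8.7e-04), and Rrm2, Mcm6, Dut and Pcna were higher by 0.79, 0.61, 0.59 and 0.56. Pold1 was lower, at 86.4 and 78.2 CPM in CD4+ cells and 179, 180 and 161 CPM in spleens (-1.05 ± 0.13, adjusted p = 7.4e-04). With the mouse as a block 8 of the 43 were higher and 2 lower, in a fit that called 4873 genes in all, against 3654 without the block. Mcm6 was the gene called higher in CD4+ cells in both sets. In tumor mice none of the 43 was called between tissues by edgeR or DESeq2 in either set (edgeR called 0% of all genes), with medians of -0.30 in the CD4-Cre set and -0.55 in the CD4-CreERT2 set. With 1 library left out the median ran from -0.59 (without the VM58 spleen) to -0.09 (without the VM388 spleen) in the CD4-Cre set, where it was -0.57 without VM645. In the CD4-CreERT2 set it ran from -1.42 (without the VM231 CD4+ library) to -0.06 (without the VM236 CD4+ library). At an unadjusted p under 0.05, 2 of the 43 were lower in the CD4-Cre set (14.2% of all genes differed) and none differed in the CD4-CreERT2 set (3.85%).

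Whether the tumor effect differed between tissues was tested as an interaction, CD4+ effect minus spleen effect. None of the 43 was called by edgeR (0% of all genes were) or DESeq2 in either set, with medians of -0.30 in the CD4-Cre set and -0.66 in the CD4-CreERT2 set. The first was -0.76 without the VM645 libraries and, with 1 library left out, -0.59 (without the VM645 CD4+ tumor) to -0.14 (without the VM388 spleen). The second was -1.51 without the VM231 CD4+ library and -0.12 without the VM236 CD4+ library. At an unadjusted p under 0.05, 2 differed in the CD4-Cre set (7.32% of all genes) and none in the CD4-CreERT2 set (2.59%). The largest differences were Mcm2 (-1.19 ± 0.48) in the CD4-Cre set and Cdc45 (-2.26 ± 1.17) in the CD4-CreERT2 set. Nor did either tool call any between the drivers, CD4-CreERT2 effect minus CD4-Cre effect, with medians of 0.16 in spleen (0.045% of all genes were called higher and 0% lower) and -0.24 in CD4+ cells (0.00511% higher and 0% lower). The sign of both medians turned with 1 library: the spleen median was -0.29 without the VM58 spleen, -0.12 without VM645 and -0.10 without either the VM231 or the VM294 spleen. The CD4+ median was 0.21 without VM236, -1.17 without VM231 and 0 without VM645. In these contrasts, 8 genes in all were called in spleen, and 1383 without the VM231 spleen. Of the 43, 2 differed in spleen and 1 in CD4+ cells at an unadjusted p under 0.05, against 19% and 7.78% of all genes. Gins1 (2.16 ± 0.99) and Ung (-1.96 ± 1.19) had the largest driver differences in spleen. The driver cannot be told apart from the set of libraries, or from the different gene lists on which the reads of each set were counted.

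Levels between genes can be compared only per length, which the CD4-CreERT2 tables give. In control CD4+ cells Pcna was highest at 57.7 CPM per kilobase, the mean of 54.7 and 60.6, followed by Mcm6 (53.1), Rrm2 (40.4) and Mcm4 (33.3); the ranges of Pcna and Mcm6 (45.9 to 60.2) overlapped. The lowest were Brca1 (0.732), Clspn (0.629) and Ung (0.538). Rrm2 and Clspn, both among the most changed in pre-lymphoma cells, stand near the top and the bottom of this order. Fusion partner genes are counted whatever transcript their reads come from: Vav1 was at 161 to 168 CPM in fusion/fusion, 187 to 207 CPM in control/fusion and 225 to 237 CPM in control cells, and Myo1f at 143 to 180, 150 to 172 and 70.7 to 83 CPM in the same groups.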

How the data were processed

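The deposited files give raw read counts by gene, neither scaled nor filtered, from polyA RNA amplified with SMART-Seq v4 and made into Nextera XT libraries, per the labels' protocols. HISAT2 2.1.0, HTSeq 0.5.4 and the builds mm10 and GRCm38 are named in the submitters' processing notes; the annotation release is not given in the sources used here. In the pre-lymphoma and CD4-Cre groups, tables hold 55276 symbols and end in entries not assigned to a gene, 27.2% to 46.0% of all, which were left out. Those of the CD4-CreERT2 set list 49315 Ensembl genes with lengths, 48970 of them with a symbol, and carry no such entries. Driver contrasts used the 48211 symbols in both.

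Libraries were grouped by set, tissue, status and genotype label. Each comparison was fitted over all genes that passed filterByExpr (minimum count 10) with TMM scaling and the two-sided quasi-likelihood F test of edgeR 4.0.16 in R 4.3.3 (limma 3.58.1), adjusted by Benjamini-Hochberg over all genes tested, and a gene was called at an adjusted p under 0.05. The 3 pre-lymphoma groups shared 1 fit, a tumor or tissue comparison used its own 2 groups, and an interaction all 4. Standard errors were computed as the log2 fold change's size over the square root of F. CPM are TMM-scaled over all libraries of a set; list means use log2 CPM with a prior count of 2. Scripts were tested on simulated data. DESeq2 1.42.0, other scalings, no filter, other sets of groups, left-out libraries and a replicate block were alternatives. Libraries held 12632196 to 37568512 counts from reads without molecular identifiers, so low counts carry counting error beyond the printed spread.

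The 43 genes and all other lists were chosen with earlier results of these data known. Values in every library are given for 1 gene of each role in the pre-lymphoma set and for the most positive and most negative gene of each tumor comparison, beside Mki67 and at most 5 genes at either end of a comparison and 4 of another list. Genes beyond these limits, among them the levels named for the VM294 spleen and Rrm2 in the CD4-CreERT2 CD4+ cells, were chosen after their values were seen. The promoters shown are those with the most E2F words; that of Brca1, which has none, is not printed. Mouse numbers in the titles pair CD4+ and spleen libraries of 1 animal, and their deviations from the group means correlated at 0.37 to 0.51 in the CD4-Cre set and 0.02 (VM231) to 0.49 in the CD4-CreERT2 set. No replicate pair agreed within sampling noise, but pre-lymphoma pairs were closer than those of the other sets. The chi-square per gene between libraries of a group was 6.9 to 19.3 in the pre-lymphoma set. It was 47.1 to 259 in control pairs of the CD4-Cre and CD4-CreERT2 sets. Depth also enters this value, and whether the pre-lymphoma libraries come from separate animals was not tested. Single values of some genes of the other lists are not reported here.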

Additional observations from a re-analysis of the deposited data

Results flagged for a closer look

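In the 4 CD4+ tumor libraries of the CD4-Cre set, 45 quantities were looked at for a library far from the other 3, and 6 had one. For a single quantity chance gives about 1 in 20. These quantities are the genes of the list and means that include them, in the same 4 libraries, so they are not independent. The 6 can therefore not be set against that rate. The VM645 tumor library stood high for 5 genes. It had 39.3 CPM of Pola1 (20.8 to 22.4 in the others), 305 CPM of Pcna (136 to 154), 154 CPM of Tipin (62.5 to 73.2), 139 CPM of Dut (52.8 to 64.6) and 54.7 CPM of Dtl (21.4 to 26.9). The VM98 tumor library stood low for Uhrf1, at 37.4 CPM against 88.8 to 96.2 CPM in the others. The number VM645 is also on control libraries; whether this bears on its values was not tested.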

How the results depend on the processing

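In the pre-lymphoma set no alternative scaling, filter, tool or set of groups moved a count of called genes among the 43 by over 1.5 times. Leaving out 1 library gave 34 to 37 higher genes in fusion/fusion cells, 13 (without TA019) to 27 in control/fusion cells and 12 (without TA024) to 30 between the fusion groups. In tumors, the number higher was 3 without a filter and 6 with DESeq2 in CD4-Cre CD4+ cells, 4 and 12 in CD4-Cre spleens, and 9 with DESeq2 in CD4-CreERT2 spleens. With 1 library left out it was 0 to 3 in CD4-Cre CD4+ cells, 0 to 1 in CD4-Cre spleens, 0 to 26 in CD4-CreERT2 CD4+ cells and 0 to 8 in CD4-CreERT2 spleens; the spleen driver contrast had 0 to 1 lower gene.

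For tissue in CD4-Cre controls, 4 genes were lower with DESeq2, 4 with the replicate block by mouse, 1 without the VM645 libraries and 0, with 0 higher, when all 4 groups were fitted together; leaving out 1 library gave 1 to 3 higher and 1 to 4 lower. In CD4-CreERT2 controls, 8 were higher without a filter, 8 higher and 2 lower with the replicate block, 0 and 0 with all 4 groups, and 1 to 6 higher and 1 lower with 1 library left out. The block changed no other count of the 43. The cause was not tested.

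Over all genes, edgeR called 28 in CD4-Cre CD4+ tumors, against 658 without a filter, 1271 with DESeq2, 121 with all 4 groups and 0 without VM645. It called 0 in each other tumor comparison, against 183 and 740 (CD4-Cre spleen), 55 and 272 (CD4-CreERT2 CD4+) and 416 and 1818 (CD4-CreERT2 spleen) without a filter and with DESeq2. With 1 library left out, edgeR called up to 579 in CD4-Cre CD4+ cells and 608 in CD4-Cre spleens (each without the VM98 library), and up to 3254 in CD4-CreERT2 CD4+ cells and 891 in CD4-CreERT2 spleens (each without the VM236 library).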
